A study of Allium sativum with 18 samples.

Results

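The comparison set bulbs of the garlic varieties Ershuizao and Chalingzipisuan against each other while they were under enlarging growth, with 3 individuals of each variety, which made 6 RNA-sequencing libraries. Its members were the genes whose FPKM value (fragments scaled by gene length and library total) reached 0.5 in 3 or more of these libraries, which held for 29409 of 57561 genes (51.1%). Of the 28152 other genes, 19652 were at 0 in all 6 libraries and 8500 were detected but did not reach this minimum. The whole study holds 18 libraries, with 3 individuals of each of 3 varieties before enlargement and under enlarging growth. All plants were grown on 1 farm from October 2019 with no treatment named, and the enlarging bulbs were taken in March 2020, a month after those before enlargement. The labels give the developmental stage as bulb under enlarging growth but the tissue as leaf, whereas the study describes parts of bulbs, which is followed here. Markers of leaf and bulb were not checked, since no annotation of the identifiers was at hand.

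A garlic bulb is a set of cloves, each of which is an axillary bud with a swollen storage leaf. Day length sets when the bulb swells. In onion and potato, genes related to *FT*, which encodes the mobile flowering signal, act in the swelling of bulb and tuber, and clock-controlled factors such as the cycling DOF factors (CDF) act upstream of *FT* in *Arabidopsis*. Gibberellins promote elongation and delay tuber formation in potato, and the branching repressor *TB1* of maize holds buds back. Gene families below are those that the study gives. All other genes are named by their identifiers.

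The 6 libraries held between 10340511 and 11924845 fragments on genes, 83.0% to 87.3% of their recovered totals, and the 10 most abundant genes took 5.51% to 6.91% of these. A library-wide stage score was built from Yuanjiangyangsuan, the variety outside the comparison, in which 2885 genes rose (10.4% of 27673 tested) and 4030 fell (14.6%) from the stage before enlargement (limma, adjusted P under 0.05 and over 2-fold). The score is the mean log2(FPKM + 0.5) of the genes that rose minus that of the genes that fell. It was 0.83, 0.16 and 1.11 in replicates 1, 2 and 3 of Ershuizao and 1.41, 1.21 and -0.54 in those of Chalingzipisuan. The libraries of the same varieties before enlargement lay between -2.19 and -0.73. Ershuizao replicate 2 and Chalingzipisuan replicate 3 thus stood nearest to the earlier stage within their varieties, and Chalingzipisuan replicate 3 stood slightly above the highest library before enlargement. The individuals were labelled by stage alone, and the labels name no batch.

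**Figure D1:**
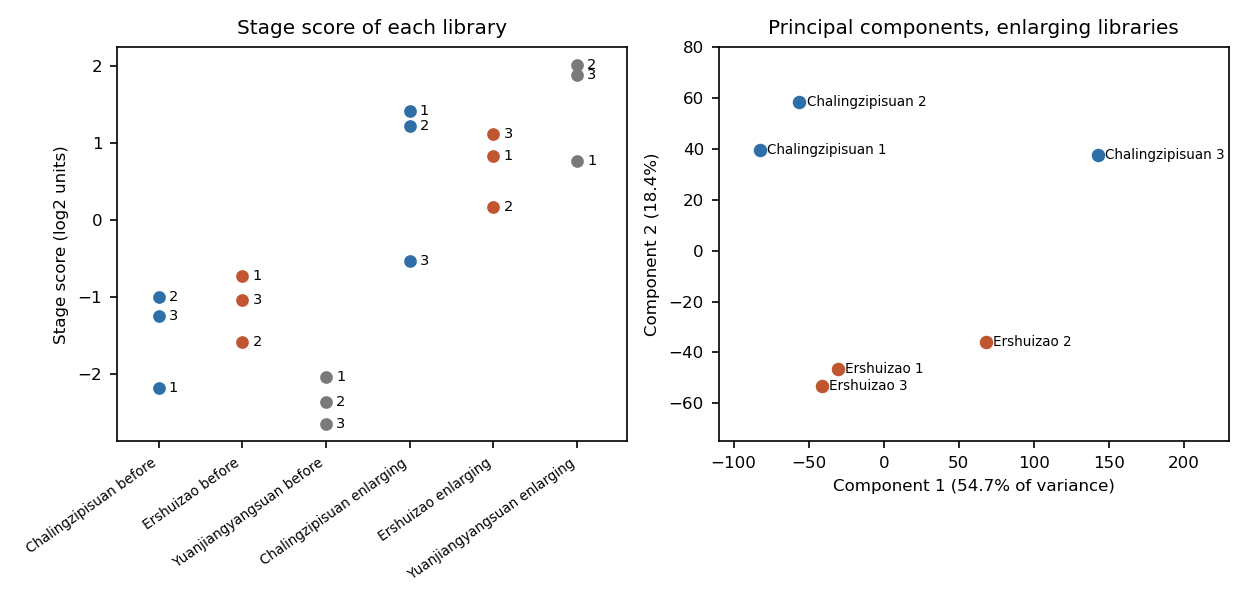
Stage score of each library (left, in log2 units, each point a library with its replicate number, by variety and stage) and the first components of the 6 enlarging libraries (right, scores on components 1 and 2 of log2(FPKM + 0.5)). Chalingzipisuan replicate 3 has a score of -0.54 beside 1.41 and 1.21 in the other replicates, and component 1 sets it and Ershuizao replicate 2 apart from the remaining libraries.

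The first principal component of the 6 libraries held 54.7% of the variance and did not separate the varieties. Chalingzipisuan replicate 3 lay at 142.7 on it and Ershuizao replicate 2 at 67.8, while the other 4 libraries lay between -82.6 and -30.6. The second component, with 18.4% of the variance, separated the varieties without overlap, with Ershuizao between -53.0 and -35.9 and Chalingzipisuan between 37.6 and 58.3. The spread between individuals was therefore wider than the difference between varieties in these libraries.

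Between the varieties, 499 genes were higher in Ershuizao (1.7% of the genes tested) and 366 were lower (1.24%) at unadjusted P under 0.05 and over 2-fold in limma. SE below is the standard error of its log2 fold change. The study used these thresholds between the stages of a variety, not between varieties. Together these 865 genes were 2.94% of the genes tested, and 1989 genes (6.76%) had an unadjusted P under 0.05. After adjustment by Benjamini-Hochberg, 32 genes were higher and 6 lower, 0.129% of the genes tested. The values of the varieties did not overlap for 1976 genes higher in Ershuizao (6.72%) and 1869 lower (6.36%). The median log2 fold change over all genes tested was 0.01. Of the called genes, 245 higher and 160 lower kept their call with each of the 6 libraries left out in turn. In bulk libraries fewer cells of a type and less RNA per cell cannot be told apart.

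Among the largest differences were genes with many transcripts in Ershuizao and none, or nearly none, counted in Chalingzipisuan. *Asa5G00518.1* had FPKM values of 78.9, 75.1 and 95.0 in Ershuizao and was at 0 in all 3 libraries of Chalingzipisuan. Its mean of 83.0 ± 10.6 (SD, n = 3) was at least 139-fold above the limit that a count of 0 allows (3 fragments per library), with a limma adjusted P of 0.000303. The gene had similar values in Ershuizao before enlargement, at 69.0, 73.4 and 84.5, and it was at 0 in all 6 libraries of Yuanjiangyangsuan and in all 3 of Chalingzipisuan before enlargement. The gene with the next identifier, *Asa5G00519.1*, behaved differently and is described below among the genes that fell with enlargement.

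*Asa8G02475.1* had FPKM values of 35.5, 22.6 and 27.3 in Ershuizao and was also at 0 in all 3 libraries of Chalingzipisuan, at least 42.6-fold below the mean of Ershuizao (limma adjusted P = 0.00285). In Yuanjiangyangsuan it was present at 2.10, 2.24 and 2.25, so that the 3 varieties did not overlap. *Asa5G02473.1* was at 19.7, 28.4 and 17.9 in Ershuizao and at 0 in the enlarging libraries of both other varieties, at least 42.0-fold above the limit in Chalingzipisuan (limma adjusted P = 0.00285). These genes were at 0 in Chalingzipisuan before enlargement as well.

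Other genes were barely detected in Chalingzipisuan. *Asa6G03213.1* was at 37.7, 85.8 and 26.3 in Ershuizao and at 0.296, 0 and 0 in Chalingzipisuan, a log2 fold change of 6.25 (SE 0.48, limma adjusted P = 0.0117). In Ershuizao before enlargement it was between 13.0 and 17.1, and its highest enlarging library was replicate 2. *Asa6G02133.1* was at 45.0, 18.8 and 43.9 against 0.0877, 0.162 and 0.303, with its lowest Ershuizao value in replicate 2. Its log2 fold change was 5.64 (SE 0.39, limma adjusted P = 0.00815), and without replicate 2 of Ershuizao and replicate 3 of Chalingzipisuan it was 6.17.

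*Asa2G07195.1* was expressed in both varieties, at 113, 75.6 and 107 in Ershuizao and 0.614, 2.18 and 2.30 in Chalingzipisuan, a log2 fold change of 5.58 (SE 0.40, limma adjusted P = 0.00934). Yuanjiangyangsuan lay between them, at 24.9, 27.5 and 71.6. The difference was as wide before enlargement, where the log2 fold change was 5.72.

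In the other direction, *Asa4G03639.1* was the most abundant of the genes lower in Ershuizao that were named by the fixed rule. Its FPKM values were 37.3, 66.1 and 45.3 in Ershuizao and 418, 465 and 569 in Chalingzipisuan, a log2 fold change of -3.30 (SE 0.26, limma adjusted P = 0.0129). In Yuanjiangyangsuan it reached 1884, 2578 and 2004. Before enlargement it was at 189 to 335 in Ershuizao and 917 to 1451 in Chalingzipisuan, so that Ershuizao was the lowest variety at both stages without overlap.

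*Asa8G05954.1* was at 0.237, 0 and 0 in Ershuizao and 32.5, 23.9 and 42.4 in Chalingzipisuan (log2 fold change -5.84, SE 0.31, limma adjusted P = 0.00341). *Asa7G01918.1* was at 0.510, 0 and 0 against 12.7, 15.2 and 15.1 (-4.55, SE 0.35, limma adjusted P = 0.0129). Both genes were expressed in Yuanjiangyangsuan, at 17.1 to 18.4 and at 12.1 to 20.8. *Asa6G05132.1* was at 0 in all 3 libraries of Ershuizao and at 3.00, 2.99 and 4.77 in Chalingzipisuan, at least 10.2-fold higher there (limma adjusted P = 0.0371).

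The remaining genes lower in Ershuizao that the rule named did not pass after adjustment. *Asa2G00974.1* was at 0.711, 0.765 and 0 against 5.91, 6.82 and 10.5, with a log2 fold change of -3.13 and an adjusted P of 0.128 by limma. *Asa1G04163.1* was at 0.256, 0.550 and 0 against 5.31, 12.8 and 1.15, with Chalingzipisuan replicate 3 nearest to Ershuizao. Its log2 fold change was -2.77 with all libraries and -3.58 without that library. *Asa6G01406.1* was at 0.0913, 1.67 and 0.0893 against 7.68, 4.64 and 4.76, with Ershuizao replicate 2 nearest to Chalingzipisuan. *Asa6G05716.1*, at 0 in all 3 libraries of Ershuizao, was at 0.801, 4.81 and 1.04 in Chalingzipisuan, at least 1.88-fold higher there.

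**Figure D2:**
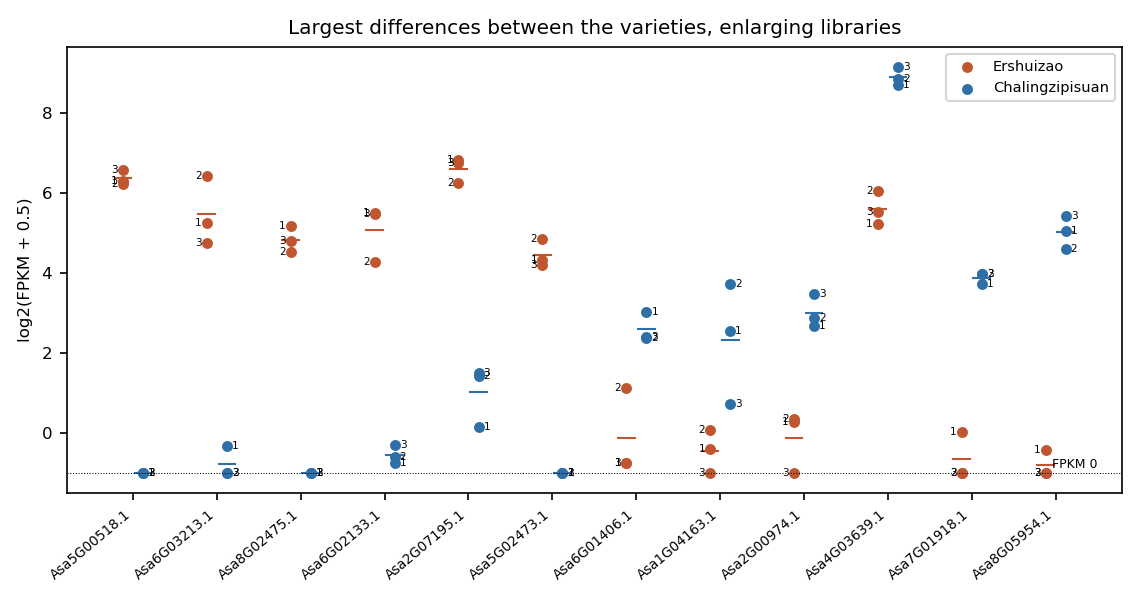
log2(FPKM + 0.5) of the 6 genes with the largest difference in each direction, in the enlarging libraries of Ershuizao and Chalingzipisuan (points are libraries with replicate numbers, short lines are means, the dotted line marks an FPKM of 0). The 12 genes were chosen among those without overlap that kept their call with every library left out. The gap between the varieties therefore follows from the choice. *Asa1G04163.1* and *Asa6G01406.1* have the library of one variety nearest to the other in Chalingzipisuan replicate 3 and Ershuizao replicate 2.

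All 38 genes that passed after adjustment kept their call at unadjusted P under 0.05 and over 2-fold with each library left out. After adjustment, between 1 (without Ershuizao replicate 3) and 31 (without Chalingzipisuan replicate 3) of them still passed. None of the 38 overlapped between the varieties, beside 13.1% of all genes tested that did not. The 38 were chosen by adjusted P in these same libraries. Their lack of overlap and kept unadjusted calls follow largely from that choice and are no separate support. Of the 32 genes higher in Ershuizao, 17 were at 0 in all 3 enlarging libraries of Chalingzipisuan, 26 were below an FPKM of 0.5 in these, and 25 were below it in all 6 libraries of that variety. For 14 of them all 6 libraries of Yuanjiangyangsuan were below 0.5 as well. Of the 6 genes lower in Ershuizao, 2 were below 0.5 in all of its enlarging libraries. Of the 38 genes, 37 were tested before enlargement and 36 had the same call there. The exceptions, named after their values were seen, were *Asa0G04874.1* and *Asa6G06619.1*. *Asa0G04874.1* was at 13.7, 16.6 and 16.7 against 67.1, 64.8 and 46.6 under enlarging growth, with a log2 fold change of -0.32 before it. *Asa6G06619.1* reached the FPKM minimum in too few libraries to be tested at the earlier stage. Its values there were 0.478, 3.16 and 2.53 in Ershuizao and 0.215, 0 and 0 in Chalingzipisuan. The number that passed after adjustment depended on the spread assumed. It was 271 in 1 fit of all 18 libraries and 61 in limma without trend or robust moderation. Limma voom on recovered fragments gave 0 adjusted calls beside 961 at unadjusted P and over 2-fold, with *Asa5G00518.1* at an adjusted P of 0.0511, and the limma fit with replicate number as a block gave 0 beside 781.

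Over all genes, tested or not, 129 were at 0 in all 3 enlarging libraries of Chalingzipisuan and above 0 in all 3 of Ershuizao, and 103 showed the reverse. Of the 129 genes, 52 were abundant enough to be tested, with a median of their mean FPKM of 2.66 and a highest of 83.0. Of the 103 genes 16 were tested, with a median of 1.28 and a highest of 3.59. The filter passed such genes through the variety that expressed them, so that each tested gene of both sets was called. The same pattern was present before enlargement for 61 of the 129 genes and for 10 of the 103. Of the 52 tested genes 28 were at 0 in all 6 libraries of Yuanjiangyangsuan and 11 were above 0 in all 6. Since 1 reference genome served both varieties, a gene with no transcripts and a gene whose sequence in that variety did not align cannot be told apart.

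Called genes that follow each other in the order of identifiers were counted among the genes tested, so that a run may skip identifiers that were not tested. Of the 865 called genes 99 (11.4%) lay in 46 such runs of the same direction, and 5 runs held 3 or more genes. No share for calls placed in random order was computed, so whether called genes cluster was not tested. The longest run held 5 genes between *Asa5G05556.1* and *Asa5G05561.1*, chosen here after its values were seen. *Asa5G05561.1* was at 3560, 6056 and 3704 in Ershuizao and 1319, 1283 and 1777 in Chalingzipisuan, a log2 fold change of 1.58 (SE 0.29, limma adjusted P = 0.255). *Asa5G05559.1* was at 3355, 5193 and 3843 against 1866, 1725 and 1774, and *Asa5G05557.1* at 1589, 2509 and 1818 against 557.8, 585.9 and 875.8. Ershuizao replicate 2 was the highest library for each of these genes. Their products are not named in the sources used here. Whether they are near-identical copies that share reads was not tested.

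The number of calls depended most on Chalingzipisuan replicate 3, mainly through calls gained without it. Each library was compared with the mean of the other replicates of its variety. The SD over genes of the log2 difference was 1.26 for Chalingzipisuan replicate 3, 0.79 for Ershuizao replicate 2 and 0.59 to 0.86 for the other 4 libraries, and Chalingzipisuan replicate 3 differed by over 2-fold at 26.4% of the genes. Without it, 1044 genes were higher in Ershuizao and 1091 lower, 7.26% of the genes tested in place of 2.94%. Of the 865 calls 656 were kept, 209 were lost and 1479 were gained. Adjusted calls rose from 38 to 57, of which 31 were among the 38.

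Leaving out any other library moved the counts of unadjusted calls less. Without Ershuizao replicate 2 there were 594 higher and 443 lower genes, with 200 calls lost and 372 gained, and 15 adjusted calls. Without 1 of the other 4 libraries there were 405 to 626 higher and 327 to 419 lower genes. In these fits 236 to 297 of the 865 calls were lost. That is more than the 209 lost without Chalingzipisuan replicate 3 or the 200 without Ershuizao replicate 2. Adjusted calls were more fragile, at 4 without replicate 1 and 1 without replicate 3 of Ershuizao and at 13 and 9 without replicates 1 and 2 of Chalingzipisuan. With Ershuizao replicate 2 and Chalingzipisuan replicate 3 both left out, 998 genes were higher and 981 lower (6.73%), and 679 of the 865 calls were kept. With all 6 libraries and the stage score as a covariate, 804 genes were higher and 525 lower (4.52%), and 860 of the 865 calls were kept. After adjustment 148 genes passed, among them all 38. The score was taken from these same libraries and hardly differed on average between the varieties. It could thus narrow the spread but hardly move the fold changes (median over all genes 0.0106 without it and 0.0104 with it). The kept calls are therefore no separate support.

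**Figure D3:**
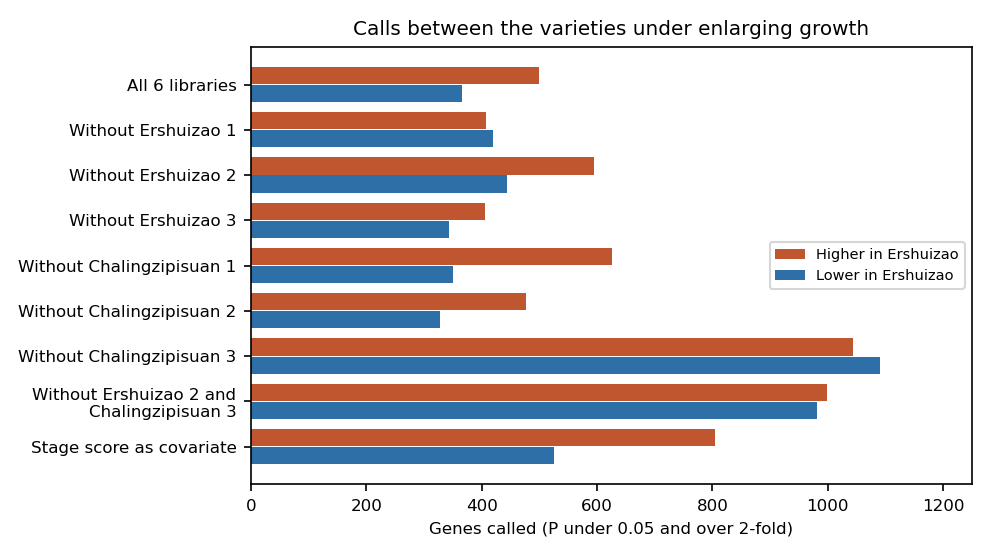
Genes called between the varieties at unadjusted P under 0.05 and over 2-fold (bars, number of genes) with all 6 libraries, with each library left out, with Ershuizao 2 and Chalingzipisuan 3 left out together, and with the stage score as covariate. The bars rise from 499 higher and 366 lower with all libraries to 1044 and 1091 without Chalingzipisuan replicate 3.

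The genes gained without Chalingzipisuan replicate 3 were set beside the stage genes of Yuanjiangyangsuan. The stage score was built from these same stage genes and was lowest in that library. The shares and medians below therefore restate its low score gene by gene and are no separate finding. Of all members, 11.8% had fallen with enlargement in Yuanjiangyangsuan and 9.04% had risen. Of the 666 gained genes higher in Ershuizao, 346 had fallen (52.0%) and 32 had risen (4.80%). Of the 813 gained genes lower in Ershuizao, 201 had risen (24.7%) and 24 had fallen (2.95%). Among the 3469 members that fell in Yuanjiangyangsuan, 61 were called higher (1.76%, beside 1.7% of all genes tested) and 21 lower (0.605%, beside 1.24%) with all 6 libraries (median log2 fold change 0.07). Without that library these were 401 (11.6%, beside 3.55%) and 41 (1.18%, beside 3.71%), with a median of 0.34. Among the 2660 members that rose, the calls went from 92 higher (3.46%) and 60 lower (2.26%), with a median of 0.10, to 96 (3.61%) and 251 (9.44%), with a median of -0.20. Over all genes tested the medians were 0.01 and -0.0013. With both libraries left out, 289 of the genes that fell were higher (8.33%, beside 3.39% of all genes tested) and 46 lower (1.33%, beside 3.34%), and 110 of those that rose were higher (4.14%) and 203 lower (7.63%).

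Ershuizao replicate 2 and Chalingzipisuan replicate 3 shared the genes in which they stood apart. In both, 134 genes lay over 4-fold above both other replicates of the variety and 96 over 4-fold below (on FPKM + 0.5), whereas any other pair of libraries across the varieties shared at most 42 and 5. Over the 29409 genes, the deviations of the pair from their variety means correlated with r = 0.62, a description in which each deviation shares its mean with the other replicates. Of the 134 genes 77 had fallen with enlargement in Yuanjiangyangsuan (57.5%, beside 11.8% of all members) and 18 had risen (13.4%, beside 9.04%). The low scores of both libraries rest on the same stage genes, so these shares are not independent of the scores. Of the 96 genes 7 had risen (7.29%) and 2 had fallen (2.08%). Among the 134 genes, 107 had a higher mean before enlargement than in the other 4 enlarging libraries, beside 4 of the 96. The choice made these 4 libraries low in the first set and high in the second. Both counts follow largely from it and are no separate finding. For 56 of the 134 both libraries exceeded every library of the 2 varieties before enlargement, and those genes were not at the level of the earlier stage.

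*Asa0G04006.1*, a gene that rose with enlargement, was one with a high value in both libraries. Its FPKM values were 12.8, 5609 and 3.10 in Ershuizao and 3.12, 7.36 and 3315 in Chalingzipisuan, and it was at 0 in all 6 libraries of both varieties before enlargement. Yuanjiangyangsuan had 642, 49.8 and 8.42. The log2 fold change between the varieties was 0.50 (SE 3.63) with all libraries, 3.60 without Chalingzipisuan replicate 3 and -2.72 without Ershuizao replicate 2. No direction can be given for it.

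The 2 listed genes that fall with enlargement were uneven between individuals too. *Asa5G00519.1* was at 39.5, 46.4 and 0.141 in Ershuizao and 1.80, 0 and 160 in Chalingzipisuan, beside 489 to 1142 before enlargement in these varieties. *Asa1G04159.1* was at 22.9, 13.4 and 0.801 against 1.32, 0.0873 and 88.4, beside 501 to 950 before enlargement. In both genes Chalingzipisuan replicate 3 was the highest of the 6 and replicates 1 and 2 of Ershuizao followed. *Asa2G01739.1*, which rose with enlargement, was at 5.38, 14.9 and 24.2 against 3.07, 9.17 and 12.9 and overlapped between the varieties. None of these 4 stage genes was called.

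Single genes were followed with each of these libraries left out. *Asa3G04051.1* was at 21.9, 76.6 and 8.37 in Ershuizao and 0.0562, 0.0520 and 13.3 in Chalingzipisuan. Its log2 fold change of 3.94 (SE 1.45, limma adjusted P = 0.692) was called with all libraries. The call was lost without replicate 1 or 2 of either variety, with 3.12 when Ershuizao replicate 2 was left out, but with Ershuizao replicate 2 and Chalingzipisuan replicate 3 both left out the gene was called, at 4.67. *Asa5G02142.1* was at 3.52, 0.758 and 4.60 against 5.85, 6.76 and 9.07, with a log2 fold change of -1.37 that was called with all libraries and lost with any library left out except Ershuizao replicate 3. Without Ershuizao replicate 2, its lowest library, the value was -0.75. *Asa1G04405.1*, at 72.3, 0.327 and 15.8 against 9.17, 0.0487 and 0.182, was called without Ershuizao replicate 2 (4.49) but not with it (2.69). *Asa3G04788.1* followed the same pattern, at 27.9, 0 and 10.9 against 7.59, 0.0313 and 0. For both genes replicate 1 of each variety was the highest library, so that individuals other than the pair above also moved together.

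The calls of *Asa8G00813.1* and *Asa6G04352.1* were lost without Chalingzipisuan replicate 3, but also without replicate 1 or 3 of Ershuizao and, for *Asa8G00813.1*, without Chalingzipisuan replicate 1. *Asa8G00813.1* was at 18.3, 6.24 and 15.3 in Ershuizao and 4.52, 6.58 and 0.592 in Chalingzipisuan, and its log2 fold change of 1.90 became 1.08 without that library. *Asa6G04352.1* was at 0.233, 2.25 and 0 against 3.38, 2.46 and 12.1, where the change moved from -2.39 to -1.76. With Ershuizao replicate 2 and Chalingzipisuan replicate 3 both left out, both genes were called, at 1.54 and -2.48. Without Chalingzipisuan replicate 3 alone a call appeared for *Asa4G04491.1*, at 89.8, 17.2 and 50.6 against 322, 572 and 0.640, whose log2 fold change moved from -0.46 to -3.31. *Asa4G04480.1*, at 48.5, 5.84 and 29.5 against 246, 454 and 0.507, was called there as well and moved from -1.20 to -3.99. The last 2 genes had the same order of libraries within each variety, and both were called higher in Ershuizao before enlargement.

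Of the 5 genes of photoperiod and flowering that the study names with a family, all were tested, 1 was higher in Ershuizao and 1 lower (beside 1.7% and 1.24% of all genes), and the median log2 fold change was -0.13 beside 0.01 over all genes. The *CDF2* homolog *Asa8G01471.1*, a DOF factor of the class that represses flowering in *Arabidopsis*, was at 39.8, 32.2 and 35.6 in Ershuizao and 13.5, 12.7 and 8.48 in Chalingzipisuan. The varieties did not overlap, with a log2 fold change of 1.62 (SE 0.22, limma adjusted P = 0.105). An exact permutation test gave p = 0.1, which 3 against 3 libraries cannot go below. The gene was called under every setting at the unadjusted threshold, with a log2 fold change between 1.42 and 1.74 and an adjusted P between 0.00866 and 0.815. Yuanjiangyangsuan had 6.40, 8.17 and 5.50, below both.

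The *ELF4*-like gene *Asa2G00681.1*, related to an evening component of the clock, was at 13.0, 3.93 and 7.40 in Ershuizao and 29.5, 19.8 and 10.6 in Chalingzipisuan. Its ranges overlapped through Ershuizao replicate 1 and Chalingzipisuan replicate 3. The log2 fold change of -1.28 (SE 0.52, unadjusted P = 0.0492, adjusted P = 0.736 by limma) lay at the threshold, and the call was lost with Ershuizao replicate 2 left out, where it was -0.87, and under pseudocount 0.1, an FPKM minimum of 1 and limma voom among others. The *TGA4*-like genes, which encode bZIP factors, were not called. *Asa2G04763.1* was at 25.8, 14.2 and 17.6 against 25.1, 23.0 and 1.59, and the log2 fold change was 0.83 with all libraries and -0.36 when Chalingzipisuan replicate 3 was left out. *Asa6G01159.1* was at 1.65, 0.531 and 1.07 against 1.88, 1.32 and 1.23. The *FT*-like gene *Asa6G06199.1*, ortholog of an onion *FT* gene, was at 15.7, 5.68 and 5.89 against 11.0, 6.34 and 10.3, a log2 fold change of -0.13 (SE 0.44) that is within the spread between individuals.

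Of 9 genes related to gibberellin, 8 were tested and 0 were called by limma, where 0 had an unadjusted P under 0.05, or by limma voom. The median of their log2 fold changes was 0.32. The *GA20ox* gene *Asa0G05638.1*, for an enzyme of gibberellin metabolism, was by far the most abundant, at 2342, 1221 and 1829 in Ershuizao and 1235, 1200.2 and 1019.8 in Chalingzipisuan. Its log2 fold change was 0.60 (SE 0.29, limma adjusted P = 0.807), and the lowest Ershuizao library, replicate 2, lay just below the highest of Chalingzipisuan. The other *GA20ox* gene, *Asa4G02474.1*, was at 0 in all 6 libraries. The *BEL5* ortholog *Asa6G01110.1*, whose potato counterpart is a mobile RNA that promotes tubers, was at 98.1, 66.9 and 123 against 89.6, 83.5 and 35.5. Both low values belonged to the deviating libraries, and the log2 fold change of 0.53 became 0.34 without them. The *SLR1* homolog *Asa2G00237.1*, for a DELLA repressor of gibberellin signalling, was between 0.569 and 1.30 in all 6 libraries.

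The other 5 gibberellin genes were named by an earlier account of these data and carry no family. *Asa3G03395.1* was at 13.0, 16.6 and 15.5 in Ershuizao and 4.92, 3.64 and 17.0 in Chalingzipisuan, a log2 fold change of 1.08 (SE 0.54). Chalingzipisuan replicate 3 alone overlapped with Ershuizao, and without it the log2 fold change was 1.71 and the gene was called. *Asa5G04732.1* was at 2.09, 2.25 and 7.97 against 12.8, 27.2 and 0, and without the same library it was called lower, at -2.29. This gene was at 0 in all 6 libraries of both varieties before enlargement, a level shared by Chalingzipisuan replicate 3. *Asa6G02235.1*, *Asa6G01479.1* and *Asa3G02513.1* overlapped between the varieties and had log2 fold changes of -0.75, 0.94 and -0.35.

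Of 5 genes of clove number and bud outgrowth, 4 were tested and 0 were called by limma, where 0 had an unadjusted P under 0.05, or by limma voom. Their median log2 fold change was -0.26. The *AXR1*-like gene *Asa2G00503.1*, from a family that acts in auxin signalling, was at 21.1, 21.9 and 25.0 against 22.5, 28.9 and 32.7, a log2 fold change of -0.29 (SE 0.19). The second *AXR1*-like identifier that the study prints, *Asa2G00253.1*, was at 9.35, 3.67 and 10.8 against 17.7, 20.4 and 2.62. It was called lower in Ershuizao without Chalingzipisuan replicate 3, at -1.33 in place of -0.45. The *YUCCA*-like gene *Asa2G02184.1*, for an enzyme of auxin synthesis, was between 0.861 and 2.39 in the 6 libraries, and the *TOPLESS*-related co-repressor gene *Asa4G00255.1* between 0.498 and 2.05. The *TB1*-like gene *Asa2G00245.1* was too low to be tested, at 0.235, 0.253 and 0.296 in Ershuizao and 0, 0.387 and 1.99 in Chalingzipisuan, where replicate 3 was again the highest.

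**Figure D4:**
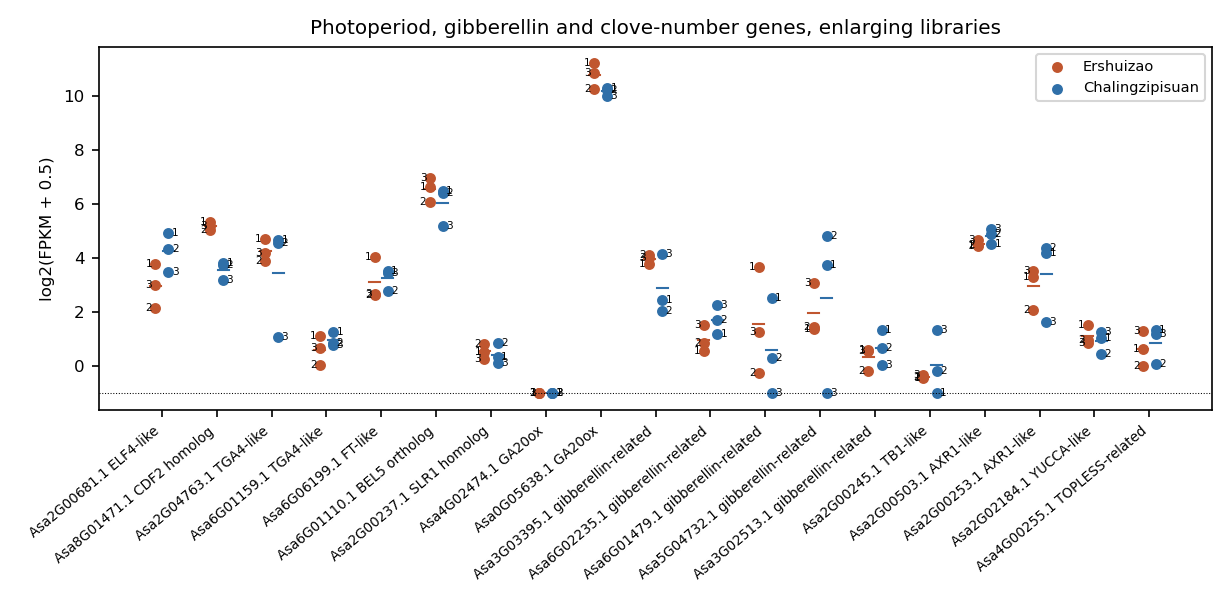
log2(FPKM + 0.5) of the photoperiod, gibberellin and clove-number genes in the enlarging libraries of both varieties (points are libraries with replicate numbers, short lines are means, the dotted line marks an FPKM of 0). Among these genes the *CDF2* homolog *Asa8G01471.1* is called and without overlap, and in *Asa2G04763.1*, *Asa3G03395.1*, *Asa5G04732.1* and *Asa2G00253.1* Chalingzipisuan replicate 3 stands apart from the other replicates of its variety.

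The same variety contrast was fitted in the libraries before enlargement, which the enlarging comparison does not use. There 1307 genes were higher in Ershuizao (4.46% of 29332) and 369 lower (1.26%), together 5.71%, and 343 genes (1.17%) passed after adjustment. Of the 499 genes higher under enlarging growth, 448 were tested before it and 195 of these had the same call (43.5%), 14.9% of the calls of that direction before enlargement, while 6 had the opposite call. Of the 366 lower genes 337 were tested, 75 had the same call (22.3%), 20.3% of the calls of that direction before enlargement, and 6 the opposite. Over the 27936 genes tested at both stages the log2 fold changes correlated with r = 0.40 (Spearman 0.26), and r was 0.46 without Ershuizao replicate 2 and 0.06 without Chalingzipisuan replicate 3.

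The variety difference itself differed between the stages for 2 of 31578 genes after adjustment (0.00633%) in an interaction test over the 12 libraries, with 1463 genes (4.63%) at unadjusted P under 0.05. *Asa3G01470.1* was at 3.47, 4.28 and 2.32 in Ershuizao and 0.352, 0.163 and 0.837 in Chalingzipisuan under enlarging growth. Before it, the order was the reverse, at 0.602, 0 and 0.0663 against 6.57, 5.19 and 4.92. The difference of the log2 fold changes was 5.20 (SE 0.53, limma adjusted P = 0.0321). *Asa7G01587.1* was at 144, 150 and 167 against 74.2, 59.3 and 65.1 under enlarging growth and at 46.1, 19.9 and 23.9 against 158, 107 and 139 before it, a difference of 3.44 (SE 0.38, limma adjusted P = 0.0373). Each group of 3 libraries was separate from the other in both genes at both stages, which follows largely from choosing them by their interaction P. Both calls were lost with the replicate block, where the adjusted P was 0.519 for each by limma. The count of 2 became 92 without Chalingzipisuan replicate 3 and 5 without Ershuizao replicate 1 before enlargement, and it was 0 or 1 with any other library left out.

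The *CDF2* homolog *Asa8G01471.1* had its variety means in reverse order as well, but its interaction did not pass after adjustment. It was at 16.2, 5.02 and 4.86 in Ershuizao and 30.9, 30.8 and 24.7 in Chalingzipisuan before enlargement, so that its enlarging libraries lay above the earlier ones in Ershuizao and below them in Chalingzipisuan, without overlap. The difference of its log2 fold changes was 3.50 (SE 0.53), with a limma adjusted P of 0.146, between 0.00145 and 0.715 over the alternatives. In the opposite direction, *Asa3G02375.1* was at 1.51, 1.80 and 3.45 against 7.66, 5.15 and 4.97 under enlarging growth and at 8.19, 7.71 and 7.09 against 1.48, 2.42 and 2.33 before it. *Asa7G01379.1* was at 11.1, 17.5 and 11.0 against 30.2, 23.0 and 46.3 and before at 78.0, 36.1 and 44.1 against 13.3, 10.9 and 15.9. Their differences were -2.95 and -3.15, each with a limma adjusted P of 0.130. Among unadjusted calls with over 2-fold difference (3%), 330 genes moved towards Ershuizao and 616 away from it with enlargement. The share at unadjusted interaction P under 0.05 by limma was 4.63%, no more than this threshold alone would give. The split is therefore not read as a result about these genes.

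**Figure D5:**
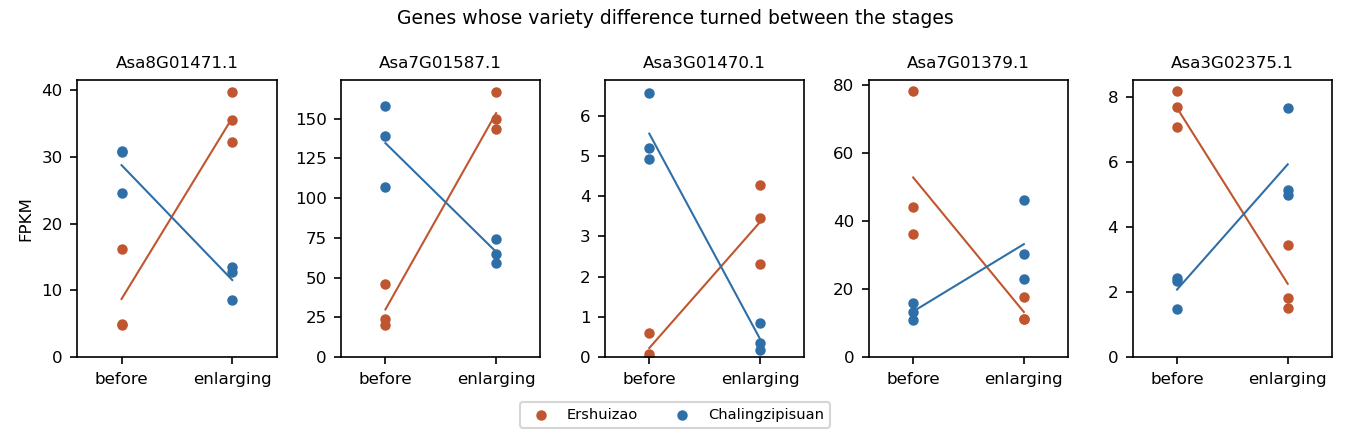
FPKM of 5 genes whose variety means were in reverse order at the other stage (points are libraries, lines join the means of 3 libraries before enlargement and under enlarging growth, vertical axes start at 0). *Asa3G01470.1* and *Asa7G01587.1* passed the interaction test after adjustment. The other genes did not, with a limma adjusted P of 0.130 to 0.146. In *Asa8G01471.1* the 3 enlarging libraries of Ershuizao lie between 32.2 and 39.8 and those of Chalingzipisuan between 8.48 and 13.5, the reverse of the order before enlargement.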

How the data were processed

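Total RNA of bulb parts from 3 individuals per variety and stage was sequenced from NEBNext Ultra libraries as paired ends. Cleaned reads were mapped by the authors to the garlic reference genome with HISAT2, and they deposited FPKM values per gene and library, and the program that counted fragments is not given in the sources used here. Whole fragments were recovered from the steps of these FPKM values: for each of the 39933 genes detected in more than 1 library the values were whole, within 0.000132 of a whole number (tolerance 0.003). The recovered fragments give the depth and served the limma voom alternative. Limits from a count of 0 (3 fragments) cover counting error only.

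Ershuizao was compared with Chalingzipisuan on log2(FPKM + 0.5) using limma (version 3.58.1, R version 4.3.3), two-sided, with trend and robust moderation, on genes reaching an FPKM of 0.5 in 3 or more libraries. Fold changes on this scale understate the change of low genes. P was adjusted by Benjamini-Hochberg over all genes tested. The study's methods state the same thresholds for the stages of a variety with DEseq on counts, which was not run here. The test follows the deposited unit, and limma voom was the alternative on fragments. The tests were checked on simulated data. These had independent noise of the same size in every library, so the check does not cover libraries that deviate together as here. Tables and plots used Python 3.11.15 with pandas 2.3.3, numpy 2.4.6 and matplotlib 3.10.9. The members and gene lists were chosen with earlier results of these data known. Named genes were the listed genes, the 6 largest differences in each direction that kept their call with every library left out (no overlap, mean FPKM of at least 5), the 2 most abundant genes at 0 in 1 variety in each direction, for Ershuizao replicate 2 and for Chalingzipisuan replicate 3 the 2 genes whose call was lost and the 2 whose call appeared without it with the largest shift of the log2 fold change, and the 2 with the smallest interaction P in each direction. Same-numbered libraries of the varieties deviated with correlations of 0.40, -0.43 and -0.39, so that replicate numbers were not taken to pair them. Alternatives were other pseudocounts, filters, scalings and moderation, a replicate block, other thresholds, 1 fit over all 18 libraries, voom, the stage score as covariate and each library left out.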

Additional observations from a re-analysis of the deposited data

Results flagged for a closer look

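For *Asa3G01470.1* and *Asa7G01587.1* the difference between Ershuizao and Chalingzipisuan differed between the stages by a test of the interaction. The log2 fold change under enlarging growth minus that before enlargement was 5.20 for *Asa3G01470.1* and 3.44 for *Asa7G01587.1*. The varieties did not overlap at either stage, which follows largely from choosing the genes by their interaction P. The number of genes that passed was 0 or 1 with a library left out. The exceptions were 92 without Chalingzipisuan enlarging replicate 3 and 5 without Ershuizao replicate 1 before enlargement. Over the alternatives tried, the limma adjusted P ranged from 0.00472 to 0.519 for *Asa3G01470.1* and from 0.00145 to 0.519 for *Asa7G01587.1*, with the highest value under the replicate block.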

How the results depend on the processing

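Genes higher and lower in Ershuizao under enlarging growth numbered 32 and 6 at adjusted P, 1042 and 947 at P alone, 998 and 981 without Ershuizao replicate 2 and Chalingzipisuan replicate 3 together, and 804 and 525 with the stage score as covariate. With pseudocount 1 there were 379 and 243. Each library left out in turn gave 405 to 1044 higher and 327 to 1091 lower genes. The replicate block gave 452 and 329, and the replicate numbers do not pair the libraries. Other pseudocounts, filters, scalings, moderation, limma voom and 1 fit of all 18 libraries gave 413 to 618 higher and 296 to 474 lower genes. The median log2 fold change moved by 0.0035 under median-ratio scaling and by -0.018 under quantile normalization. Before enlargement, adjusted P gave 260 higher and 68 lower genes, and the other alternatives stayed within 1.5 times the counts or, with a library left out, at 1226 to 1656 and 376 to 536. The interaction count of 2 became 0 with pseudocount 0.1 (1448 at unadjusted P under 0.05) and with the replicate block (1204), 46 without both deviating libraries and 946 at unadjusted P and over 2-fold, and it ranged from 0 to 92 with a library left out. The cause of these shifts was not tested.

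Of 75 named log2 fold changes 62 never changed sign, and the 13 others were not called with all 6 libraries. The 62 include the genes that passed after adjustment and those named for keeping their call with every library left out. Their constant sign follows largely from that choice and is no measure of stability over all genes. Without both deviating libraries, that of *Asa2G04763.1* was -0.17, of *Asa6G06199.1* 0.20, of *Asa2G00237.1* -0.18 and of *Asa4G00255.1* 0.24. *Asa5G04732.1* was at 0.080 with pseudocount 0.1 and 0.13 with limma voom. With a library left out the ranges were -0.36 to 1.45 for *Asa2G04763.1*, -0.59 to 0.11 for *Asa6G06199.1*, -0.044 to 0.33 for *Asa2G00237.1*, -0.11 to 1.89 for *Asa6G01479.1*, -2.29 to 0.61 for *Asa5G04732.1*, -1.33 to 0.039 for *Asa2G00253.1*, -0.026 to 0.38 for *Asa2G02184.1*, -0.63 to 0.083 for *Asa4G00255.1*, -2.72 to 3.60 for *Asa0G04006.1*, -0.76 to 2.86 for *Asa1G04159.1*, -0.85 to 3.31 for *Asa5G00519.1*, -3.31 to 1.18 for *Asa4G04491.1* and -3.99 to 0.42 for *Asa4G04480.1*. Whether depth or the number of individuals limits the calls was not tested.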
